A study of Mus musculus with 3 samples.

Results

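The genes described here are 42 interferon-stimulated antiviral genes and their regulators, chosen by gene symbol from a fixed list. It leaves out the antigen presentation genes and the interferon-inducible GTPases other than Mx1 and Mx2. Of these, 32 had a probe named for them in the table of values that the authors processed, out of 9678 genes with such a probe. Ifit1, Ifi44, Ifih1, Mx1, Oas1a, Oas2, Oas3, Xaf1, Herc6 and Nmi had none, and their expression was not analysed here. The list was drawn up after the spread of interferon-responsive genes between these arrays was known, so that spread is described below without a test.

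OS25 is a line of embryonic stem (ES) cells from mouse. Its total RNA was hybridised to 3 Illumina BeadArrays, 1 for each biological replicate. Nothing in the labels says how the replicates were separated, so technical and biological spread between them cannot be told apart. All 3 form 1 group, labelled as ES cells before differentiation, with no genotype, treatment or time that sets them apart. The medium held 10% foetal calf serum, 1000 units/mL of human recombinant leukaemia inhibitory factor, β-mercaptoethanol, penicillin, streptomycin, glutamine, pyruvate, non-essential amino acids and hygromycin, and the labels name no interferon or virus. The series accompanies a profile of histone H4 lysine 16 acetylation in the same kind of cell.

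Interferons are secreted proteins that bind receptors at the cell surface and activate Janus kinases (JAK) and STAT transcription factors. Type I interferon signalling brings STAT2 and IRF9 into a complex that binds the interferon-stimulated response element (ISRE) in target promoters, while interferon gamma acts at gamma-activated sites (GAS) and through the induced factor IRF1. The targets sense viral nucleic acid, block translation, budding or replication of viruses, and feed back on the pathway. Undifferentiated ES cells are known to make little interferon and to respond to it less than differentiated cells.

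Promoter windows of 250 bases before to 50 bases after the transcription start, from RefSeq (build GRCm38.p6), were found for 32 of the 42 genes, 24 of them among those measured. None was matched for Ifi27, Dhx58, Mx1, Mx2, Oas2, Usp18, Parp9, Parp14, Rtp4 and Zbp1. The ISRE core, written as GAAA and GAAA with any 2 bases between and searched on both strands, occurred in 12 of the 39 windows of the listed genes (30.8%) and in 3.44% of all 32851 windows. The GAS letters, TTC and GAA with any 3 bases between, which read the same on both strands, occurred in 7 of the 39 windows (17.9%) and in 8.30% of all windows. The lines below give the stretch around each ISRE core that lies before the start of a measured gene, and the GAS of Irf1, a gene known to respond directly to interferon gamma. Each is read 5′ to 3′ along the strand of the gene, and capitals mark the matched motif, which in Stat2, Ifit3 and Rsad2 is the reverse complement of the core.
Stat2, chr10:128270251-128270310, plus strand: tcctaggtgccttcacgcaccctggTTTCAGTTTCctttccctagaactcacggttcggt
Isg15, chr4:156200850-156200921, minus strand: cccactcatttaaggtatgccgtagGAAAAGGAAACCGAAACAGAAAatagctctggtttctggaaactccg
Ifit3, chr19:34583348-34583441, plus strand: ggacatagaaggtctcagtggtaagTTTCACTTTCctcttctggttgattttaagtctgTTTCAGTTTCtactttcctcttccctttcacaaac
Rsad2, chr12:26456538-26456597, minus strand: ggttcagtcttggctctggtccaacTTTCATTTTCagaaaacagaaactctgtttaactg
Bst2, chr8:71537562-71537627, minus strand: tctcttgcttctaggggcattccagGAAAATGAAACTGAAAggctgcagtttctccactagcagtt
Irf1, chr11:53769899-53769957, plus strand: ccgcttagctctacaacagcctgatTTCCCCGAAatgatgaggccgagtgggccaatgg

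In the Isg15 stretch 3 overlapping cores run together, and in the Bst2 stretch 2 cores overlap each other, the first of them also overlapping a GAS match at position −136 from the start. A match is a description of the letters and not a binding site.

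Expression is given as normalised log2 intensity, and a probe counted as above background on an array where its detection p, which ranks it against the negative control beads of that array, was under 0.01. Levels of different genes come from different probes and were not compared with each other. A detection p of 0 means that no control bead was as bright, and the smallest value above 0 was 0.00107. The median unprocessed intensity was 74.9 to 80.7 on the 3 arrays, and 14515 to 15865 of 45281 probes were above background. Across the 13777 probes above background on all arrays, the levels of replicate 1 had a Pearson correlation of 0.949 with those of replicate 2 and of 0.951 with those of replicate 3, whereas replicates 2 and 3 reached 0.990, so replicate 1 stood apart. Among ES cell markers, 8 of 20 had a named probe and 4 were above background on every array, which were Klf2 (7.64 ± 0.09, SD, n = 3), Klf4 (7.47 ± 0.87), Klf5 (9.40 ± 0.71) and Tbx3 (8.06 ± 0.24), while Pou5f1, Nanog, Sox2 and Esrrb had no named probe. The other named ES cell markers are given here after their values were seen. Zfp42, Tet1 and Fbxo15 were above background on replicate 1 alone, and Tfcp2l1 on no array. Of 16 fibroblast markers 12 were named and 10 above background on every array, the widest ranges of these 10 being those of Thy1 (6.81, 9.85 and 9.49 on replicates 1, 2 and 3), Col6a1 (11.53, 10.22 and 9.71), S100a4 (6.81, 8.34 and 8.24), Vim (12.19, 13.43 and 13.40) and Col1a2 (7.55, 6.88 and 6.36). Dcn, given here after its values were seen, differed more, at 12.28 on replicate 1 and 6.77 on replicate 2. A detection p of 0.0128 on replicate 3 kept it out of the 10. The cells are therefore called the cells labelled undifferentiated ES cells. The summed linear intensity of the 12 fibroblast markers was 23488, 24673 and 22231 on replicates 1, 2 and 3, that of the 8 ES cell markers 1168, 1768 and 1642, and that of the 2 named of 20 immune cell markers 165, 165 and 172, with Cd14 at 6.68, 6.92 and 6.99 and Ptprc and Cd3e unnamed. Coro1a, the other named immune cell marker, is given here after its values were seen. Unlike Cd14 it was highest on replicate 1, at 5.97 against 5.43 on replicate 2, with a detection p of 0.0107 on replicate 3. The fibroblast sum joined genes that moved in opposite directions between arrays, such as Dcn and Vim. For the 32 interferon-stimulated genes the sums were 22858, 7475 and 12865. Each of these sums weighs bright probes most, such as those of Irf1 (12.44) and Ifi27 (12.00) on replicate 1. Each also includes genes not above background on every array. The part of cell composition in these values was not tested, and in bulk RNA fewer cells of a type cannot be told apart from less RNA per cell.

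Most of the measured interferon-stimulated genes were above background, as were most genes, and the levels of many differed widely between the 3 replicates. Detection was counted only over genes with a probe that the authors kept. Of the 32 measured genes, 26 were above background on all 3 arrays (81.2%), against 82.1% of all genes. By array, 31 were above background on replicate 1 (92.2% of all genes), 26 on replicate 2 (88.4% of all genes) and 27 on replicate 3 (85.3% of all genes). Of the 26, 16 spanned over 2-fold between their highest and lowest array (61.5%), against 10.1% of all genes. The median range was 1.47 log2 units over the 26 genes and 0.41 over all 7950 genes detected on every array, and the median SD was 0.74 against 0.21.

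The arrays mostly stood in the same order. Replicate 1 was the highest array for 21 of the 26 genes (43.2% of all genes), replicate 2 the lowest for 23 (25.9% of all genes), and both held for 20 (19.1% of all genes). Those 20 genes kept the order under all 5 ways of computing the levels. Quantile normalisation keeps the rank of a probe within its array, so the ways that apply it to the same probe share the order largely by design. Without normalisation between arrays, the order held for 12.9% of all genes. The median deviation of the 26 genes from their own mean over the arrays was 0.67, −0.80 and 0.04 on replicates 1, 2 and 3, while the median of all genes was 0.00 on each. These shares describe the pattern for which the genes were listed and are no evidence for it.

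**Figure D1:**
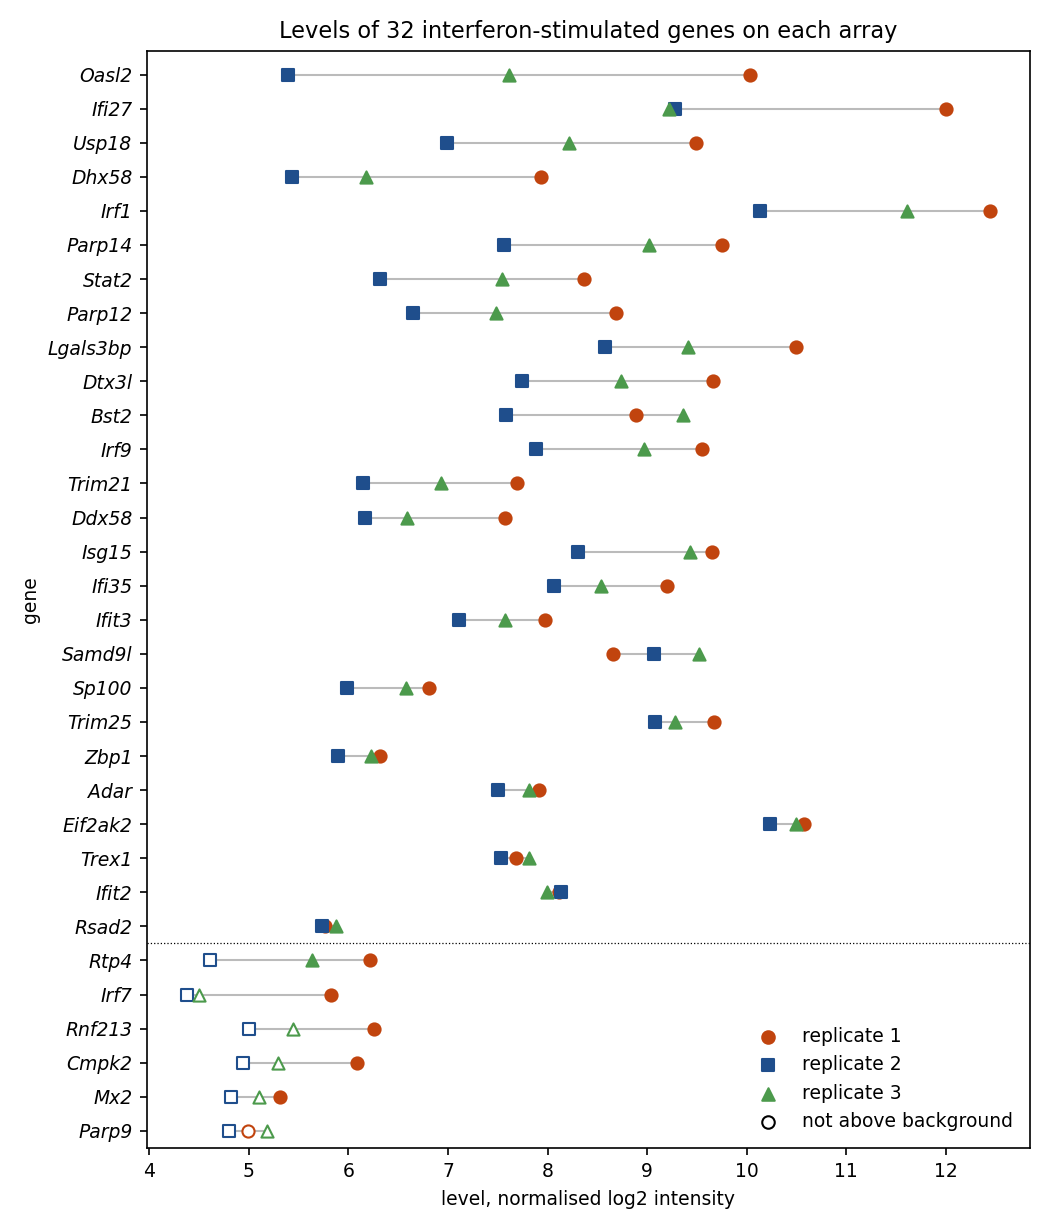
Level of each of the 32 measured genes on each array, as normalised log2 intensity on the x axis, with 1 row per gene. Circles, squares and triangles are replicates 1, 2 and 3, open symbols are values not above background, grey lines join the lowest and highest array, and the 6 genes under the dotted line were not above background on every array; the square of replicate 2 is leftmost in most rows.

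Among the transcription factors, the genes of the ISRE-binding complex were high on replicate 1 and low on replicate 2. Stat2 was at 8.37, 6.32 and 7.54 on replicates 1, 2 and 3 (7.41 ± 1.03, SD, n = 3), a 4.12-fold span. Irf9, which encodes the DNA-binding partner of STAT2, was at 9.55, 7.88 and 8.97 (8.80 ± 0.85), a 3.18-fold span. Replicate 3 lay between the other arrays for both.

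Irf1, which encodes a factor that interferon gamma induces strongly, had levels of 12.44, 10.13 and 11.61 (11.39 ± 1.17), a 4.97-fold span. Its order was again replicate 1, then 3, then 2. Irf7, whose product drives production of type I interferon, was above background on replicate 1 alone, at 5.82 with a detection p of 0. On replicates 2 and 3 its detection p was 0.762 and 0.450, so the probe gave no measured level there.

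The nucleic acid sensors split into genes that differed widely between arrays and genes that differed little. Oasl2, a mouse relative of the 2′-5′ oligoadenylate synthetases, had the widest range of the 26 genes, at 10.03, 5.39 and 7.61 (7.68 ± 2.32). Its highest array was 24.9-fold above its lowest, and on replicate 2 it was only just above background (detection p of 0.00855). This difference of 4.64 log2 units was 3.41 in the values the authors processed, 3.48 with quantile normalisation and no background correction, and 2.76 for the mean of its probes. Dhx58, which encodes LGP2, a RIG-I-like RNA helicase, was at 7.93, 5.43 and 6.18 (6.51 ± 1.28), a 5.63-fold span that also rests on a value close to background on replicate 2 (detection p of 0.00748). Its difference of 2.49 log2 units was 1.53 in the values the authors processed. Ddx58, which encodes RIG-I, a sensor of viral RNA in the cytosol, was at 7.57, 6.17 and 6.59 (6.78 ± 0.71), a 2.63-fold span. All 3 genes were highest on replicate 1 and lowest on replicate 2.

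By contrast, Eif2ak2, which encodes PKR, a kinase that stops translation when it binds double-stranded RNA, was at 10.58, 10.23 and 10.50 (10.44 ± 0.19). Adar, which encodes an enzyme that edits adenosine to inosine in double-stranded RNA, was at 7.91, 7.50 and 7.81 (7.74 ± 0.21). Both kept the order of the other genes over a small range, 0.36 log2 units for Eif2ak2 and 0.41 for Adar, the latter equal to the median range of all genes. A dimmer probe of Adar ranged more widely, at 7.11, 5.92 and 6.76, in the same order. Trex1, which encodes an exonuclease that degrades cytosolic DNA, was at 7.68, 7.53 and 7.81 (7.67 ± 0.14), highest on replicate 3 and with a range of 0.28. Zbp1, which encodes a sensor of Z-form nucleic acid that can trigger cell death, was at 6.32, 5.90 and 6.23 (6.15 ± 0.22) on its brighter probe.

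Isg15 encodes a ubiquitin-like protein that is joined to other proteins and also secreted. It was at 9.65, 8.31 and 9.43 (9.13 ± 0.72), so that replicates 1 and 3 lay within 0.21 log2 units of each other and replicate 2 lay at least 1.13 below them. Usp18, which encodes the protease that removes ISG15 and also restrains the type I interferon receptor, was at 9.49, 6.99 and 8.22 (8.23 ± 1.25), a 5.68-fold span. The genes of the activating and conjugating enzymes of ISG15, which belong to a wider list of interferon-stimulated genes, followed the same order, with Uba7 at 9.74, 7.72 and 8.71 and Ube2l6 at 9.55, 7.74 and 8.95. Trim25, which encodes a ubiquitin ligase that acts on RIG-I, spanned 1.51-fold, at 9.67, 9.08 and 9.28 (9.34 ± 0.30).

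Effectors that act on viral RNA or on virus release differed from gene to gene. Ifit3, which encodes an RNA-binding repeat protein, was at 7.97, 7.11 and 7.57 (7.55 ± 0.43), and its range of 0.86 log2 units fell just under 2-fold. Ifit2, its neighbour in the same family, was at 8.11, 8.13 and 7.99 (8.07 ± 0.08). Rsad2, which encodes viperin, an enzyme that makes a chain-terminating nucleotide, was at 5.76, 5.73 and 5.87 (5.79 ± 0.07). Ifit2 and Rsad2 thus had the smallest ranges of the 26 genes, 0.14 log2 units each, although the Rsad2 promoter stretch printed above holds an ISRE core. Among detected genes with a promoter window, the median range was 1.36 for 8 genes with an ISRE core and 1.14 for 13 without, with ranges from 0.14 in each set to 2.04 and 4.64. For the GAS letters the medians were 0.77 for 6 genes with a match and 1.39 for 15 without.

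Bst2, which encodes tetherin, a membrane protein that holds budding virus at the cell surface, was at 8.89, 7.58 and 9.36 (8.61 ± 0.92). Like Trex1 and Rsad2 it was highest on replicate 3, by 0.47 over replicate 1, and without normalisation between the arrays replicate 1 was the highest instead. Samd9l, which encodes a restriction factor that arrests translation, was at 8.66, 9.07 and 9.52 (9.08 ± 0.43). Of the 26 genes it alone was lowest on replicate 1 and highest on replicate 3 under every way of computing levels, most of which share quantile normalisation. Bst2 has 2 overlapping ISRE cores in its window and Samd9l none, and neither absence nor presence of these letters says what binds there.

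Ifi27 encodes a small membrane protein of mitochondria. It was at 12.00, 9.28 and 9.22 (10.17 ± 1.59), which is 6.85-fold between the highest and the lowest array. Replicates 2 and 3 differed by 0.06 log2 units, so replicate 1 alone stood apart.

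Genes of ADP-ribosyltransferases and their partner followed the common order closely. Parp14 was at 9.75, 7.56 and 9.02 (8.78 ± 1.12), a 4.57-fold span, and Parp12, whose product is found in stress granules and at the Golgi, was at 8.69, 6.65 and 7.48 (7.60 ± 1.03), a 4.11-fold span. Dtx3l, which encodes a ubiquitin ligase that works in a complex with PARP9, was at 9.66, 7.74 and 8.74 (8.71 ± 0.96), a 3.79-fold span. In each of the 3 genes replicate 3 lay between the others. Parp9 was the only measured gene of the list above background on no array, with detection p of 0.0385, 0.124 and 0.0353, so it gives no level to set beside that of Dtx3l, its neighbour in the genome.

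Further effectors had the same order. Lgals3bp, which encodes a secreted glycoprotein, was at 10.50, 8.58 and 9.41 (9.50 ± 0.97), and Trim21, which encodes a cytosolic antibody receptor with ubiquitin ligase activity, was at 7.69, 6.15 and 6.93 (6.93 ± 0.77). Ifi35, whose product pairs with that of Nmi, was at 9.20, 8.06 and 8.54 (8.60 ± 0.57), and its range of 1.14 log2 units was the smallest of those over 2-fold. Sp100, which encodes a component of nuclear bodies, was at 6.81, 5.99 and 6.58 (6.46 ± 0.42), a 1.76-fold span. Replicate 1 exceeded replicate 2 by 0.81 log2 units or more in all 4.

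Another 5 genes were above background on some arrays only, and their ranges have no measured lower end. Rtp4, which encodes a chaperone of receptor transport, was at 6.22 on replicate 1 and 5.63 on replicate 3, with a detection p of 0.255 on replicate 2. Rnf213, which encodes a giant ubiquitin ligase, was above background on replicate 1 alone at 6.26, and so was Cmpk2, which encodes a mitochondrial nucleotide kinase, at 6.09. Mx2, which encodes a dynamin-like antiviral GTPase, was above background on replicate 1 alone at 5.31 (detection p of 0.00855), as was Irf7. Replicate 1 was thus the array on which each of the 5 was above background.

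Where a gene had several probes, they mostly placed the arrays alike. The 32 genes had 54 probes, of which 37 were above background on all arrays, and 28 of those were highest on replicate 1 and lowest on replicate 2. Of all genes, counted by 1 probe each, 19.1% had that order. Probes of 1 gene are not independent, and Irf1 and Adar have 4 each of the 37. Of 7 genes with more than 1 such probe, 5 had the same order on every one of them, while Ifit2 and Trex1 did not. The 4 probes of Irf1 above background on every array had ranges of 2.31, 2.25, 2.63 and 2.70 log2 units, and both probes of Irf9 spanned over 2-fold, at 1.67 and 1.95. Probes of Zbp1 disagreed in size. The probe with the lower mean was at 7.44 and 6.15 on replicates 1 and 3, with a detection p of 0.528 on replicate 2, against a range of 0.43 on the probe used. On replicate 1 it was the brighter of the 2 probes. Dtx3l had a dim second probe with a different order, at 5.17, 5.46 and 5.67, lowest on replicate 1, where it was not above background. The mean of both Dtx3l probes differed by 0.82 between replicates 1 and 2, against 1.92 on the brighter probe. The bases of the probes were not used here, so signal shared between relatives such as the Ifit or Oas genes cannot be told apart.

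**Figure D2:**
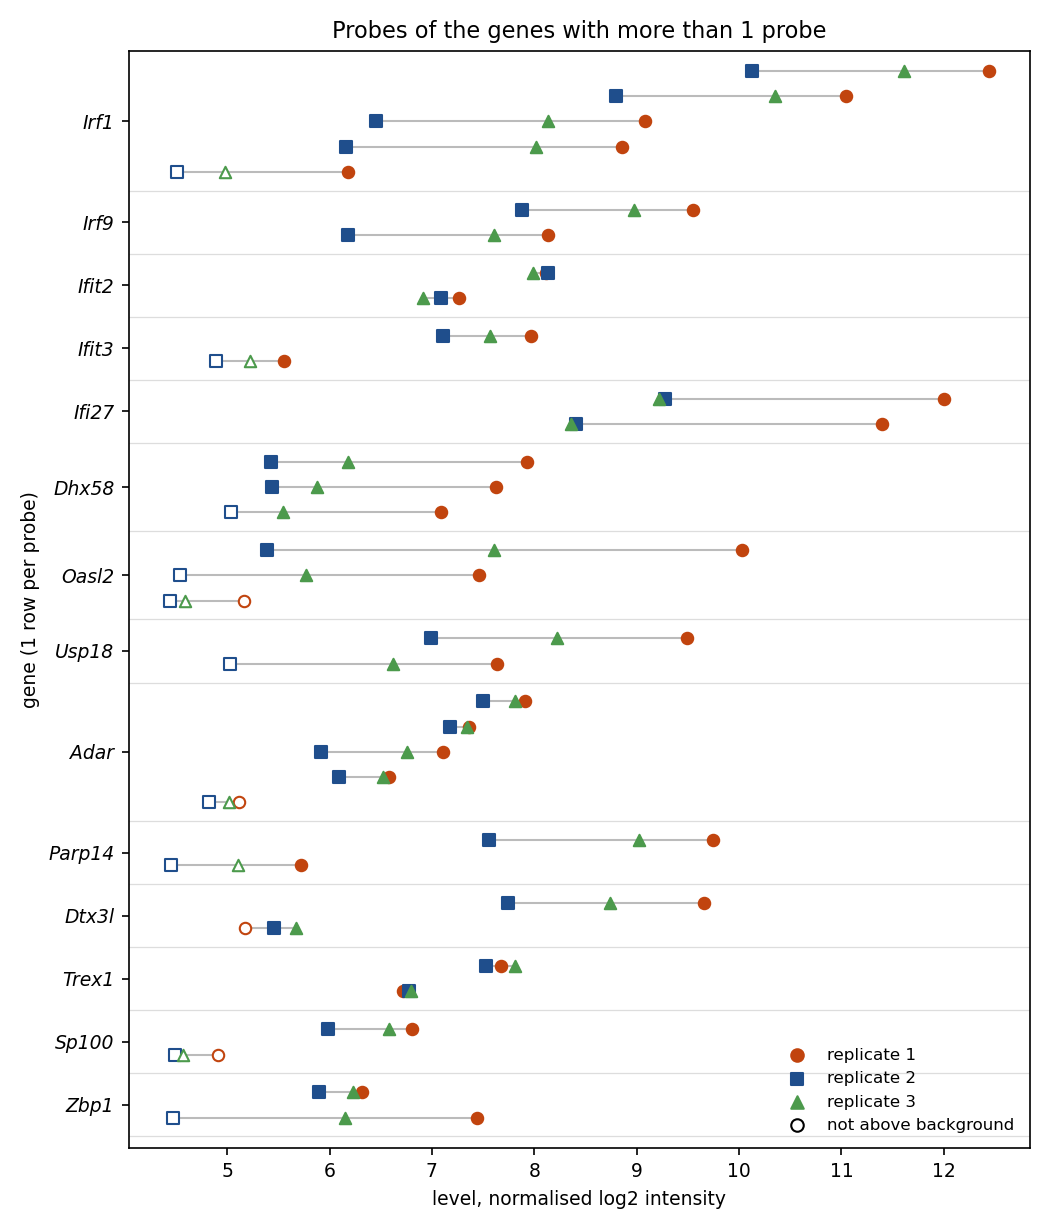
Level on each array, as normalised log2 intensity, for every named probe of the genes with more than 1 probe, with 1 row per probe. Symbols are as in the plot of levels by gene and open symbols are values not above background; the 4 filled rows of Irf1 share 1 order, while the rows of Zbp1 differ in width.

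Replicates 3 and 2 were close in general, but some of these genes, and of the GTPase and antigen presentation genes, differed between them. Of the 26 genes, 8 were over 2-fold higher on replicate 3 than on replicate 2 (30.8%), against 0.390% of all genes, and none was over 2-fold lower. They were Oasl2 (2.22 log2 units), Bst2 (1.77), Irf1 (1.47), Parp14 (1.46), Usp18 (1.24), Stat2 (1.22), Isg15 (1.13) and Irf9 (1.09). Dtx3l lay at the threshold with a difference of 1.00 that did not exceed it. Over all genes, 31 were over 2-fold higher on replicate 3 and 5 over 2-fold lower. The trait was not particular to the antiviral genes. Of genes detected on every array, 5 of 6 GTPase genes and 7 of 12 antigen presentation genes were over 2-fold higher on replicate 3 than on replicate 2. The count of 8 became 4 in the values the authors processed and 5 with quantile normalisation and no background correction. Between replicates 1 and 2, 24 of the 26 genes were higher on replicate 1 (50.0% of all genes), with a median difference of 1.37 log2 units. Between replicates 1 and 3, 22 were (49.8% of all genes), with a median of 0.62, and the median difference of all genes was 0.00 in both pairs.

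The count was also taken with each array left out, which with 3 arrays is the difference within the remaining pair. Without replicate 1, 8 of 26 genes spanned over 2-fold, against 0.456% of all genes, and the median range was 0.67 against 0.14. These are the same 8 genes as above. Without replicate 2, 6 of 27 did, against 8.25% of all genes, with a median range of 0.65 against 0.33. Without replicate 3, 16 of 26 did, against 7.83%, with a median range of 1.37 against 0.31. The count was thus lowest without replicate 2 and, without replicate 3, as high as with all arrays. With a step of over 0.5 log2 units required both from replicate 1 down to 3 and from 3 down to 2, a threshold chosen after the values were seen, 11 of the 26 genes qualified, against 0.566% of all genes.

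**Figure D3:**
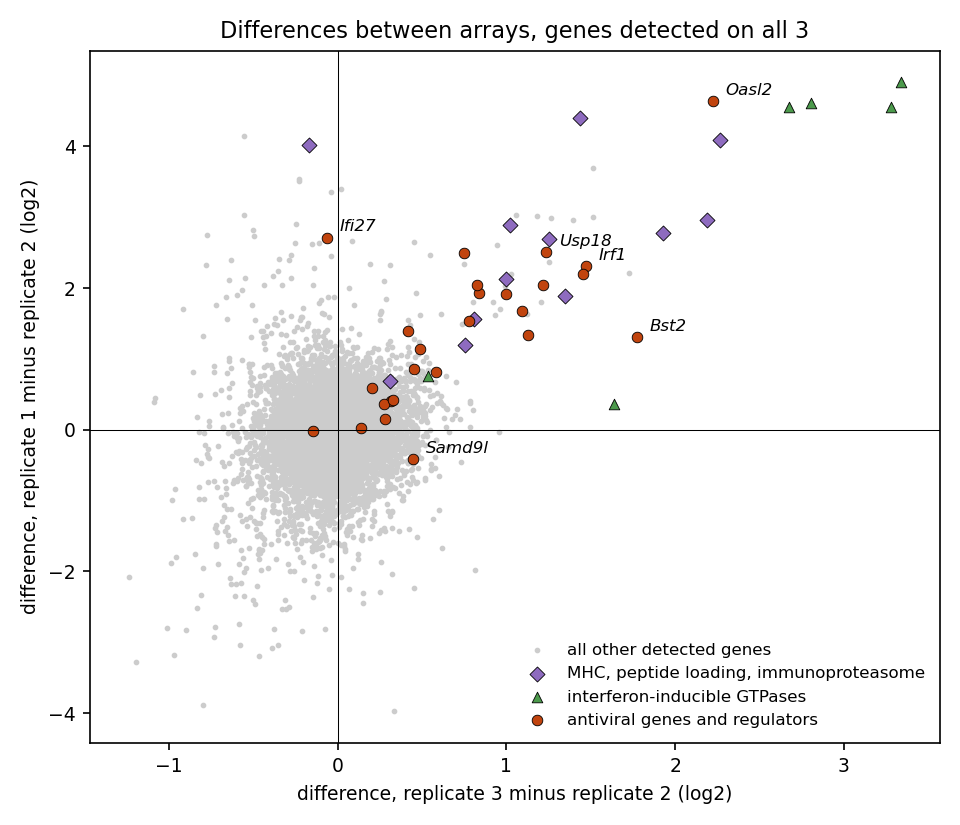
Log2 difference between replicates 1 and 2 (y axis) against that between replicates 3 and 2 (x axis) for the 7950 genes detected on all arrays; both axes share replicate 2, so the points lean along the diagonal by construction. Circles are the 26 antiviral genes and regulators, triangles the GTPases, diamonds the antigen presentation genes, and grey points all others; Ifi27 lies high on the y axis with no shift on the x axis, and Samd9l lies below 0 on the y axis.

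Genes that carry the signal from interferon to these targets were listed beside them. None of 12 interferon genes, Ifnb1 and Ifng among them, had a named probe. Of 19 genes of receptors and JAK-STAT signalling, 17 were named and 14 were above background on every array, and none of the 14 spanned over 2-fold. Their median range was 0.42 log2 units, and the median deviations were 0.12, 0.02 and −0.04 on replicates 1, 2 and 3. The widest were Ifngr2, a chain of the interferon gamma receptor (6.55, 7.32 and 7.15), Irf2bp2, a corepressor (8.33, 8.03 and 7.74), Irf2, a factor that competes with IRF1 (9.89, 9.30 and 9.43), the phosphatase gene Ptpn11 (12.18, 12.72 and 12.50) and the feedback inhibitor gene Socs3 (8.87, 8.43 and 8.37). Of these 5, Irf2 had the order of most targets, Ifngr2 and Ptpn11 were lowest on replicate 1, and Socs3 and Irf2bp2 were lowest on replicate 3. The remaining 3 named genes, given here after their values were seen, were above background on replicate 1 alone: Ifnlr1, a chain of the interferon lambda receptor, at 6.92, the phosphatase gene Ptpn6 at 6.41 and the feedback inhibitor gene Socs1 at 5.40. Requiring detection on every array leaves such genes out, so the count of 0 over 2-fold does not cover them.

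Genes of nucleic acid sensing and its adaptors outside the list were likewise close on the arrays. Of 20, 15 were named and 12 above background on every array, with a median range of 0.27, and 1 spanned over 2-fold. That was Rnf135, which encodes a ubiquitin ligase that activates RIG-I, at 10.10, 8.96 and 8.88. Next came Tank (8.45, 8.95 and 8.92) and Cgas, which encodes the cytosolic DNA sensor (9.74, 9.35 and 9.83). The adaptor genes Ticam1 (5.48, 5.88 and 5.60) and Mavs (8.09, 8.37 and 8.38) were lowest on replicate 1.

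Other interferon-stimulated genes shared the pattern in part. Of 58, 36 were named and 26 above background on every array, 8 spanned over 2-fold, and 16 were highest on replicate 1 and lowest on replicate 2. Their median deviations were 0.30, −0.19 and −0.01. The widest were Oas1g (9.75, 7.42 and 8.17), Nlrc5, a regulator of MHC class I genes (9.29, 7.08 and 8.80), Uba7 and Ube2l6 with the values given above, and Parp10 (7.64, 5.85 and 6.77). The related lists that the set leaves out ranged more widely: 6 of 8 named GTPase genes were above background on every array, with median deviations of 2.04, −2.44 and 0.46 and the widest ranges in Igtp (4.91), Gbp2 (4.61), Gbp3 (4.56), Irgm2 (4.55) and Gvin1 (1.64). For 12 of 15 antigen presentation genes they were 1.23, −1.29 and 0.00, with the widest ranges in Tapbp (4.41), H2-Ab1 (4.18), Psmb9 (4.09), Psmb8 (2.97) and H2-K1 (2.88). The other antigen presentation genes, given here after their values were seen, were above background on replicate 1 alone: Cd74 at 11.50, H2-Eb1 at 9.30 and H2-Aa at 8.27. So was Ciita, of the other interferon-stimulated genes, at 8.13. Requiring detection on every array also left out further genes of the other lists. Housekeeping genes stood at −0.03, −0.01 and 0.04 over 10 genes, and the widest ranges among them were those of Hprt (1.03), Pgk1 (0.72), Rplp0 (0.61), Tbp (0.30) and Ywhaz (0.30).

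**Figure D4:**
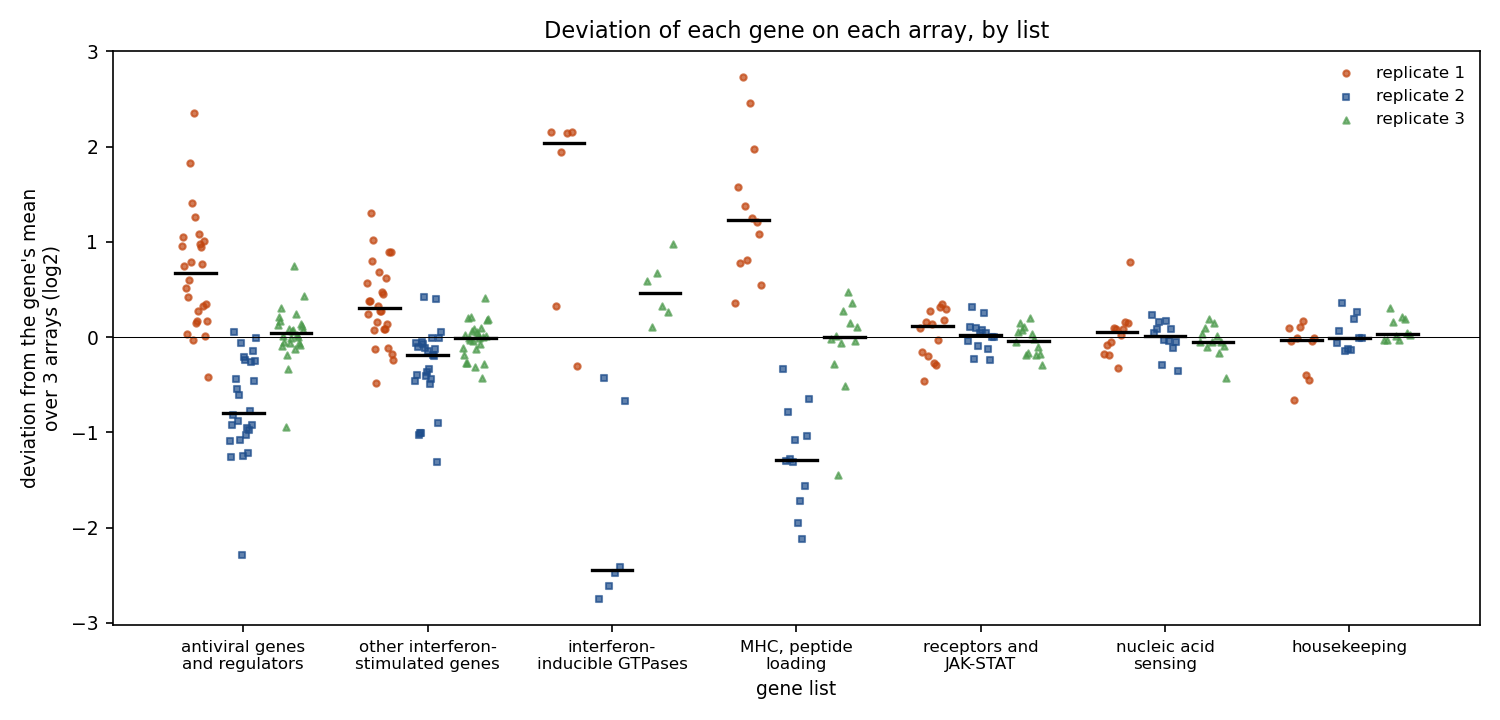
Deviation of each gene detected on all arrays from its own mean over the 3 arrays (y axis, log2), by list (x axis) and array, with black bars at the medians. The bars of the antiviral genes lie at 0.67, −0.80 and 0.04 on replicates 1, 2 and 3, and those of the receptor, sensing and housekeeping lists within 0.12 of 0.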

How the data were processed

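Per the labels' protocols, TRIzol was used for extraction, with a later DNase I treatment, and the Ambion MessageAmp kit for biotinylated cRNA. The deposited unprocessed table holds, per the file headers, an intensity (linear bead brightness, not normalised) and a detection p-value for each of 45281 probes. The authors' deposited processed table holds log2 intensities of 17754 probes; limma is named in the submitters' processing notes, without its version, and the sources used here do not give the array software or the probe filter. The columns hold 1 set of sorted values, as quantile normalisation gives.

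Levels were computed with neqc in limma 3.58.1 (R 4.3.3): background correction with control statistics inferred from detection p-values, then an added offset of 16, which narrows ranges of dim probes, quantile normalisation and log2. Probes in the processed table with 1 gene (15045; 5 had several, 2704 none) were named through the platform annotation and, for 15026, the RefSeq symbol of their Entrez identifier. The probe with the highest mean stood for a gene; for Zbp1 the processed table would give the other probe. The 42 genes and the 10 other lists were chosen with earlier results of these data known. Values were printed for every measured member, and for other lists for the detected members where there were 5 or fewer and otherwise for the 5 of widest range; genes named outside this rule are said to be. With 1 group no test between groups was possible, and counts and medians are set beside those of all genes. A call of over 2-fold means a range above 1 log2 unit. The number of arrays (3) limits the precision. Steps were tested on simulated data. Alternatives were other detection thresholds, normalisations, probe rules and each replicate left out. Python 3.11.15, numpy 2.4.6 and pandas 2.3.3 were used.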

Additional observations from a re-analysis of the deposited data

How the results depend on the processing

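No paired analysis was possible because the arrays form 1 group. The count of 26 genes above background on all arrays was 26 at a detection p under 0.05, 23 under 0.001, 31 with detection on at least 1 array, 26 with any probe of the gene, and 26 to 27 with a replicate left out. The number over 2-fold higher on replicate 3 than on replicate 2, 8 of 26, was 5 with quantile normalisation and no background correction and 4 in the values processed by the authors; it was 6 without normalisation between arrays, 9 on averaging the probes of each gene and 9 with dim probes kept. The number spanning over 2-fold, 16, was between 14 and 20 under the other settings and between 6 and 16 with a replicate left out. The median range, 1.47, was 1.12 with quantile normalisation and no background correction and 1.11 in the values processed by the authors. It was 1.69 without normalisation between arrays, 1.47 on averaging the probes of each gene and 1.37 with dim probes kept. With a replicate left out, when fewer arrays enter it, the median range was between 0.65 and 1.37. The median deviations kept their sign on replicates 1 and 2; that on replicate 3 was −0.19 without normalisation between arrays, when the median of all genes stood at 0.26, −0.04 and −0.22 on replicates 1, 2 and 3, and −0.30 without replicate 2. Under that scaling 25 of the 26 genes were highest on replicate 1, Samd9l being the exception, and Bst2, Trex1 and Rsad2 were no longer highest on replicate 3. Of 64 differences of single genes per setting, 55 to 60 moved by less than the SD over arrays and none of those over 2-fold turned. For Zbp1 the mean of both probes gave 1.70 between replicates 1 and 2 and 1.01 between 3 and 2. Signal over background limits Oasl2 and Dhx58 on replicate 2 and the 6 genes not above background on every array.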

Other observations

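Of the 31 genes over 2-fold higher on replicate 3 than on replicate 2, 8 belonged to the antiviral genes and regulators, 5 to the interferon-inducible GTPases, 7 to the antigen presentation list and 2 to the other interferon-stimulated genes, Nlrc5 and Ube2l6. The remaining 9 were in no list and are named after their values were seen: Apol9a, Gm8909, H2-Q6, H2-Q7, H2-Q8, H2-T23, Ifi47, Shfl and Tapbpl. H2-Q6, H2-Q7, H2-Q8 and H2-T23 are MHC class I genes that resemble each other, so probes may share signal between them. Ifi47 is a further interferon-inducible GTPase gene, Shfl encodes an interferon-induced protein that acts on viral frameshifting, and Tapbpl encodes a relative of the peptide-loading protein tapasin.

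Of the 45 genes that dropped by over 0.5 log2 units from replicate 1 to 3 and again from 3 to 2, 11 were antiviral genes and regulators, 9 antigen presentation genes, 4 GTPases and 4 other interferon-stimulated genes, and 17 were in no list. The thresholds were chosen after the values were seen, and no test was run.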
